A study of Mus musculus with 46 samples.

Results

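Metformin was compared with control in the proximal small intestine of male C57BL/6J mice that drank water with metformin (3 mg/mL) for 4 weeks. The labels call the other group control without saying what else those mice received. The comparison took the 3 proximal metformin libraries and the 3 proximal control libraries by their labels, 6 of 46 samples in the series. The wider study gave metformin or imeglimin, a structurally related glucose-lowering drug, as a single oral dose or in drinking water. It measured bulk RNA in 3 small intestinal segments and colon, and single cells in colon. The 3 proximal imeglimin libraries, from mice given the same concentration for the same time, shared the statistical fit with the 6 libraries and serve as a second comparison. The sources used here give no age, and do not say that replicates are separate mice, and a p-value covers only how much these libraries vary.

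The 9 proximal libraries held 32246196 to 44932640 counts each, and replicate libraries differed by more than sampling noise. Several segment markers in the control libraries matched the label, and some did not. Gata4, a transcription factor of the upper small intestine, averaged 135 CPM (counts scaled to library size) in proximal and 2.61 CPM in distal controls. Lactase (Lct) averaged 3400 CPM in proximal and 3.19 CPM in distal controls, while the ileal bile acid binding protein Fabp6 averaged 0.119 CPM in proximal and 3290 CPM in distal controls. Middle controls averaged 93.6 CPM of Gata4 and 1480 CPM of Lct. Slc40a1 and Cybrd1, also listed as proximal markers, were not higher in proximal controls. They averaged 8.34 and 2.33 CPM there, against 59.5 and 2.82 CPM in distal controls. Of the markers of the first stretch of duodenum, Pdx1 at 0.328, Muc6 at 0.05 and Tff2 at 0 CPM were low or absent in proximal controls. Dnase1, listed with Muc6 and Tff2 as a Brunner gland marker, averaged 252 CPM in proximal controls.

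Metformin, a biguanide that lowers blood glucose, reaches high concentrations in the intestinal wall. The upper small intestine carries absorptive enterocytes on villi and, at the base of the crypts, Paneth cells that secrete antimicrobial peptides. Lysosomes are acidic organelles in which hydrolases break down glycans, lipids and proteins, and sialic acid set free there is exported to the cytosol and cut by the lyase NPL.

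The rise of Npl and of a set of lysosomal genes is the background to the 5′ sequences shown here. The RefSeq promoter table of build GRCm38.p6 holds a window of 300 bases at each start site, most of it upstream, and 12564 of the 17295 genes tested matched it. The 6 letters CACGTG, which read the same on both strands and are an E-box that many factors of the basic helix-loop-helix class can bind, were searched in every window and stand in capitals below. The first window is that of Npl on the minus strand at chr1:153549665-153549964, with 1 match whose first base is at -51 (the start site is 1 and the base before it -1). The second is the downstream of the 2 RefSeq windows of Ctsa, cathepsin A, on the plus strand at chr2:164833523-164833822, with matches at -12 and 6.
Npl: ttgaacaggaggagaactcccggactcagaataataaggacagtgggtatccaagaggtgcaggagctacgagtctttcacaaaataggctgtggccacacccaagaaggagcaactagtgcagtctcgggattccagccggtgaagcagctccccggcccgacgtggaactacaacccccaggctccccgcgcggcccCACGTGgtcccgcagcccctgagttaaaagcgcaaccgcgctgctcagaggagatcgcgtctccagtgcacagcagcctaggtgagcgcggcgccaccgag
Ctsa: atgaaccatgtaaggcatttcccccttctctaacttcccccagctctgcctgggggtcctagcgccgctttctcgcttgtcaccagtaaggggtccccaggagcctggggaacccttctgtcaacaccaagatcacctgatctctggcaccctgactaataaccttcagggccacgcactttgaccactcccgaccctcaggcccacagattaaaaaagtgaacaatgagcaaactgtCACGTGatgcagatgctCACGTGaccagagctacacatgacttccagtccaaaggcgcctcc
CACGTG was present in a window of 8.09% of all 27025 genes of the table, of 10.9% of the genes tested, of 17% of the 224 matched genes higher with metformin and of 6.35% of the matched genes lower with metformin. Of the 64 matched genes of the lysosomal lists described below, 34.4% held it. The share was much the same, 35.3%, in the 17 of them that were higher with metformin. The longer TCACGTG, searched on both strands and always containing the shorter motif, was found in 4.29% of genes of the table, in 6.38% of the genes tested, in 11.2% of the matched genes higher with metformin, in 3.01% of those lower with metformin and in 29.7% of the matched lysosomal genes. In the 17 matched lysosomal genes higher with metformin the longer motif was found in 29.4%. Both Ctsa matches lie in the longer motif and the Npl match does not. The windows of Ctsz, Fuca1, Gnptab and Tpp1 and the upstream window of Ctsa had no match to CACGTG. That of Ctsl had 1, at -236 and outside the longer motif. A match is a description of the letters only.

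After 4 weeks of metformin, 710 of 17295 genes (4.11%) passed an adjusted p of 0.05 against control (edgeR quasi-likelihood test, Benjamini-Hochberg adjustment). Of all genes tested, 285 (1.65%) were higher and 425 (2.46%) were lower, and the median log2 fold change over all genes was -0.008. Metformin and control libraries did not overlap in 2046 genes that were higher (11.8%) and 2340 that were lower (13.5%). The number called rested on single libraries: 52 genes passed without metformin 3 and 154 without metformin 1. It was 338 without metformin 2, 274 without control 1, 493 without control 2 and 441 without control 3, and 470 with the replicate number as a block. A core of 47 genes, 23 higher and 24 lower, passed under all 11 other settings planned, and none of the 710 turned its sign under them. Smooth muscle markers were lower in every metformin library, with a mean log2 CPM of 5.73 to 6.21 in metformin libraries and 6.47 to 6.73 in control libraries. With that score as a covariate, a setting chosen with the results in view, 4 genes passed, 0 of them among the 710. The median standard error of the 710 genes was 0.255 with the covariate and 0.126 without it. Their median absolute log2 fold change was 0.402 with the covariate and 0.627 without it, and 684 kept their sign. The muscle content of the samples and the drug cannot be told apart by this fit, because the score separates the 2 groups completely. In bulk tissue, fewer cells of a type and less RNA per cell cannot be told apart either.

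**Figure D1:**
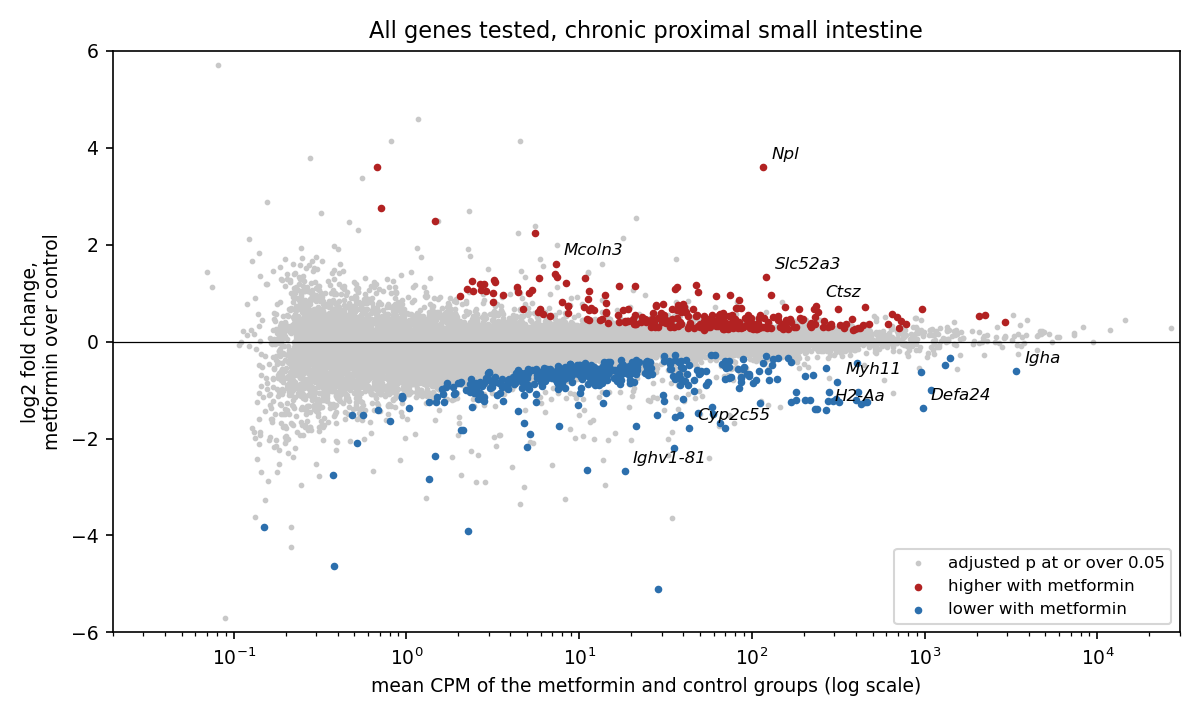
Log2 fold change of metformin over control (vertical axis) against the mean CPM of both groups (horizontal axis, log scale) for the 17295 genes tested in proximal small intestine, with 9 genes outside the axes. Red points are the 285 genes higher and blue points the 425 genes lower with metformin at an edgeR adjusted p under 0.05, and Npl stands apart from the other red points of like level.

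The clearest rise was that of Npl, N-acetylneuraminate pyruvate lyase, which splits sialic acid into an amino sugar and pyruvate. It had 228, 190 and 226 CPM in the metformin libraries, against 13, 22.9 and 17.1 CPM in the control libraries. The lowest metformin library lay far above the highest control library. The ratio of means was 12.1 and the log2 fold change 3.60 ± 0.25 (SE, n = 3 each, edgeR adjusted p = 0.00025). It passed the threshold under all 11 planned settings, with an edgeR adjusted p of 0.00311 at most, and stood at 2.78 (edgeR adjusted p = 0.0701) with the smooth muscle score as covariate.

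A list of 17 genes that handle sialic acid and amino sugars was drawn up after the values were seen and holds Npl itself. Of these 5 rose including Npl (29.4%, against 4.11% of all genes called), 0 fell and 12 did not pass. Their median was 0.29, against -0.008 over all genes. Uap1l1, a relative of the enzyme that makes UDP-N-acetylglucosamine, had 94, 102 and 110 CPM in metformin libraries, against 54.7, 70.7 and 64.3 CPM in control libraries (0.69 ± 0.10, edgeR adjusted p = 0.00958). The groups did not overlap, and it passed under all 11 planned settings. Slc17a5, which exports sialic acid from the lysosome, had 36.2, 32.6 and 35.9 CPM in metformin libraries, against 21.2, 16.1 and 24.7 CPM in control libraries (0.76 ± 0.16, edgeR adjusted p = 0.0284). The sialidase Neu1 (0.61 ± 0.14) and the sialate esterase Siae (0.43 ± 0.09) had edgeR adjusted p of 0.0406 and 0.0251. Neu1 and Siae are also counted in the lysosomal lumen list and Slc17a5 in the lysosomal membrane list, so these counts are not separate. These 3 calls were less firm than those of Npl and Uap1l1. Slc17a5 missed the threshold with the replicate block (edgeR adjusted p = 0.0554) and without control 1 (0.0665), control 2 (0.0574) or metformin 1, 2 or 3 (0.0909, 0.054 and 0.102). Neu1 missed it without any 1 of the 6 libraries (0.0567 to 0.134), and Siae without control 1 (0.0682), metformin 1 (0.0653) or metformin 3 (0.102).

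Lysosomal enzymes formed a broader group of smaller rises. On 2 lists also drawn up after the values were seen, 15 of 56 enzymes of the lysosomal lumen (26.8%) rose and 0 fell (median 0.13). Of 25 proteins of the lysosomal membrane and of enzyme sorting 5 (20%) rose and 0 fell (median 0.19). Of all genes tested 4.11% were called. The summed level of the lumen list was 3730 to 3920 CPM in metformin libraries and 3170 to 3210 CPM in control libraries, without overlap. The number of lumen enzymes called was 5 without metformin 3, 7 without metformin 1, 9 without control 1 and 11 without metformin 2, control 2 or control 3. For the membrane list it was 1 without metformin 3 and 3 or 4 without any other library.

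Among the peptidases, Ctsz, the lysosomal carboxypeptidase cathepsin Z, had 303, 291 and 294 CPM in metformin libraries, against 180, 164 and 188 CPM in control libraries (0.74 ± 0.08, edgeR adjusted p = 0.00475). Ctsa, cathepsin A, which also shields the sialidase from breakdown, had 187, 186 and 208 CPM in metformin libraries, against 115, 128 and 113 CPM in control libraries (0.71 ± 0.08, edgeR adjusted p = 0.00475). Tpp1, tripeptidyl peptidase, had 45.7, 52.5 and 54.2 CPM in metformin libraries, against 28.7, 31.4 and 28.4 CPM in control libraries (0.78 ± 0.10, edgeR adjusted p = 0.00907). In all 3 genes every metformin library was above every control library. The endopeptidase cathepsin L (Ctsl) rose by 0.68 ± 0.11 on that scale (edgeR adjusted p = 0.0107).

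Among the enzymes that take apart glycans and lipids, Fuca1, the lysosomal fucosidase, had 219, 221 and 224 CPM in metformin libraries, against 162, 149 and 162 CPM in control libraries (0.49 ± 0.06, edgeR adjusted p = 0.00753). Smpdl3a, a phosphodiesterase related to acid sphingomyelinase and named here after its value was seen, had 187, 155 and 168 CPM in metformin libraries, against 86.4, 79.9 and 97.1 CPM in control libraries (0.95 ± 0.10, edgeR adjusted p = 0.00475). Hexa, a subunit of beta-hexosaminidase, had 100, 110 and 109 CPM in metformin libraries, against 73.9, 76.5 and 78.2 CPM in control libraries (0.48 ± 0.07, edgeR adjusted p = 0.00958). The groups lay apart in each of these genes.

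Gnptab, which starts the mannose 6-phosphate tag that sends enzymes to the lysosome, had 43.2, 45.5 and 46.5 CPM in metformin libraries, against 30.7, 28.6 and 26.6 CPM in control libraries (0.65 ± 0.08, edgeR adjusted p = 0.00858). The membrane protein Lamp1 (0.57 ± 0.09) and the lysosomal cation channel Mcoln1 (0.50 ± 0.07) both rose with an edgeR adjusted p of 0.00958. Its relative Mcoln3 was higher by 1.61 ± 0.35 (edgeR adjusted p = 0.0324) but was not called when control 1 (0.0955), control 3 (0.08), metformin 1 (0.0903) or metformin 3 (0.117) was left out. Npl, Uap1l1, Ctsz, Ctsa, Tpp1, Ctsl, Fuca1, Smpdl3a and Gnptab passed under all 11 planned settings. Hexa, Lamp1 and Mcoln1 missed the threshold only without metformin 3, with edgeR adjusted p of 0.0533, 0.0545 and 0.0526. None of the 17 tested subunits of the proton pump V-ATPase, which acidifies lysosomes, passed the test (median 0.18). A further list held 11 genes of the TFEB family, which controls lysosomal genes, and of the folliculin and Rag proteins that regulate it. Of these Fnip2 and Rragd rose (18.2%, against 4.11% of all genes called) and 0 fell (median 0.12). That count was 0 without metformin 1 or metformin 3 and 1 without control 1 or control 3.

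**Figure D2:**
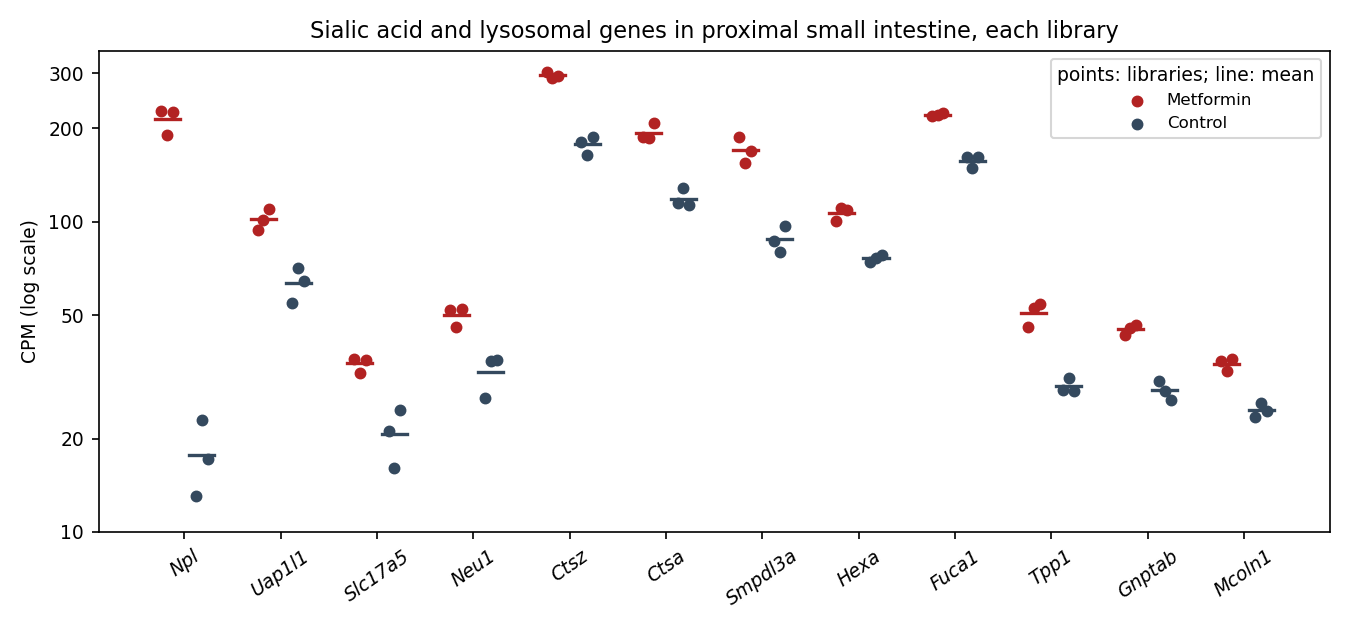
CPM (log scale) of 12 sialic acid and lysosomal genes in each metformin library (red, left) and each control library (dark blue, right), with the mean of 3 libraries as a line. In each of the 12 genes all metformin points lie above all control points, and the gap is widest for Npl, at 190 to 228 CPM with metformin and 13 to 22.9 CPM in controls.

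Slc52a3, a riboflavin transporter, had 162, 156 and 203 CPM in metformin libraries, against 61.6, 51.9 and 93.6 CPM in control libraries (1.33 ± 0.20, edgeR adjusted p = 0.00958). Slc46a1, the proton-coupled folate transporter of the upper intestine, had 114, 97 and 115 CPM in metformin libraries, against 62.1, 60 and 58.2 CPM in control libraries (0.86 ± 0.11, edgeR adjusted p = 0.00753). Neither gene's groups overlapped. Slc52a3 missed the threshold without metformin 3 (edgeR adjusted p = 0.0533) and Slc46a1 passed under all 11 planned settings. Slc19a3, a thiamine carrier, did not pass (0.46 ± 0.26, edgeR adjusted p = 0.36).

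Single members of several metabolic lists rose as well. Of 31 genes of fatty acid oxidation and PPAR alpha, Acadl and Bdh1 rose and 0 fell (median 0.11). The share called was 6.45% on that list and 12% on the lipid absorption list below, against 4.11% of all genes tested. Acadl, the long-chain acyl-CoA dehydrogenase, had 162, 157 and 169 CPM in metformin libraries, against 122, 113 and 112 CPM in control libraries (0.49 ± 0.06, edgeR adjusted p = 0.00753). Of 25 genes of lipid absorption and chylomicrons 2 rose, the fatty acid binding protein Fabp1 and Apoc2, the cofactor of lipoprotein lipase, and 1 fell, the cholesterol exporter Abca1 (median 0.01). Apoc2 had 788, 785 and 860 CPM in metformin libraries, against 581, 563 and 572 CPM in control libraries (0.50 ± 0.07, edgeR adjusted p = 0.00958), again without overlap. Pcx, pyruvate carboxylase, rose by 0.49 ± 0.08 (edgeR adjusted p = 0.00958) and the hypoxia-responsive Ndrg1 by 0.62 ± 0.09 (edgeR adjusted p = 0.00958). Bdh1, Fabp1 and Abca1 each lost their call without metformin 1 (edgeR adjusted p = 0.0846, 0.0848 and 0.119) or metformin 3 (0.0926, 0.0926 and 0.14) and without at least 1 control library. Fabp1 also missed the threshold with the replicate block (edgeR adjusted p = 0.055) and with only the 2 groups in the fit (0.0518). Acadl and Ndrg1 passed under all 11 planned settings, while Apoc2 (edgeR adjusted p = 0.0516) and Pcx (0.0559) missed the threshold without metformin 3. Among the largest rises by fold were also Rnf208, a ubiquitin ligase (1.34 ± 0.17, edgeR adjusted p = 0.00858), Ppfia3, a liprin (1.14 ± 0.16, edgeR adjusted p = 0.00958), and Prr5l, which binds mTOR complex 2 (1.40 ± 0.21, edgeR adjusted p = 0.00958). Rnf208 and Ppfia3 passed under all 11 planned settings and Prr5l missed the threshold without metformin 3 (edgeR adjusted p = 0.0516).

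Antimicrobial products of Paneth cells were lower with metformin. Of 12 Paneth markers, 9 fell (75%, against 4.11% of all genes called) and 0 rose. All 12 had a negative fold change, with a median of -1.21. Their summed level was 1990, 2200 and 2440 CPM in metformin libraries, against 4540, 3770 and 6960 CPM in control libraries, without overlap. All 21 alpha-defensin genes tested had a negative fold change (median -1.27) and 13 fell. Their sequences are near-identical, so the counting may have split or shared reads between them and they are not 21 separate measurements. Their summed level was 2027, 2388 and 2492 CPM in metformin libraries, against 4913, 4105 and 8102 CPM in control libraries.

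Defa24 had 435, 556 and 639 CPM in metformin libraries, against 1189, 1099 and 1929 CPM in control libraries (-1.37 ± 0.20, edgeR adjusted p = 0.00958). Defa17 had 166, 173 and 192 CPM in metformin libraries, against 370, 312 and 548 CPM in control libraries (-1.22 ± 0.18, edgeR adjusted p = 0.00958). Ang4, an antimicrobial ribonuclease, had 27.6, 28.4 and 38.5 CPM in metformin libraries, against 83.1, 78.2 and 165 CPM in control libraries (-1.79 ± 0.31, edgeR adjusted p = 0.0149). In each of these 3 genes all metformin libraries were below all control libraries, and control 3 was the highest. The number of Paneth markers called was 2 without metformin 3, 4 without metformin 1, 7 without metformin 2, control 1 or control 3, and 10 without control 2. Without control 3 the median was -0.85. Defa24 and Defa17 passed under all 11 planned settings, and Ang4 missed the threshold without metformin 1 (edgeR adjusted p = 0.0653) or metformin 3 (0.0559). Dnase1, which encodes a secreted enzyme that digests DNA, had 111, 124 and 93.4 CPM in metformin libraries, against 219, 280 and 259 CPM in control libraries (-1.20 ± 0.11, edgeR adjusted p = 0.00197). Its groups did not overlap and it passed under all 11 planned settings. Dnase1 was on the list of Brunner gland markers and not on the Paneth list.

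None of the 15 goblet, 13 enteroendocrine or 10 tuft cell markers passed the test (medians 0.01, 0.11 and 0.06). Of 16 enterocyte markers only Fabp1 rose and 0 fell (median 0.06). The summed enterocyte level was 81200 to 89300 CPM in metformin libraries and 68900 to 79400 CPM in control libraries, without overlap. That of goblet markers was 8240 to 8570 CPM in metformin libraries and 7830 to 8270 CPM in control libraries. None of 30 proliferation genes passed (median -0.03).

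Of 52 genes of drug metabolism, 5 fell and 1 rose, while the list's median was 0.08. The share called was 11.5%, against 4.11% of all genes tested. Cyp2c55, a cytochrome P450 of fatty acid and drug oxidation, had 16.1, 22.9 and 19.5 CPM in metformin libraries, against 78.2, 78.8 and 44 CPM in control libraries (-1.78 ± 0.21, edgeR adjusted p = 0.00742). Ces2a, a carboxylesterase, had 189, 174 and 189 CPM in metformin libraries, against 382, 455 and 295 CPM in control libraries (-1.04 ± 0.18, edgeR adjusted p = 0.0155). Both gene families have close copies, so these levels are uncertain to the extent that reads were shared. The drug metabolism count was 1 fall without metformin 1 or metformin 3, and 2 falls with 4 rises without control 2. It was 4 falls without control 1, 7 without control 3 and 3 without metformin 2.

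Slc34a2, an intestinal sodium-phosphate cotransporter, had 39.6, 34.2 and 19.1 CPM in metformin libraries, against 100, 66 and 132 CPM in control libraries (-1.68 ± 0.27, edgeR adjusted p = 0.0113). Slc51b, a subunit of the basolateral bile acid exporter, had 34.1, 33.7 and 29.9 CPM in metformin libraries, against 54.4, 49.5 and 51.8 CPM in control libraries (-0.67 ± 0.08, edgeR adjusted p = 0.00753). Hspa12a, a distant member of the Hsp70 family, had 22.9, 23.8 and 12.3 CPM in metformin libraries, against 50, 54.6 and 65.2 CPM in control libraries (-1.52 ± 0.23, edgeR adjusted p = 0.00958). None of the 3 genes had overlapping groups. Of 10 genes of calcium, phosphate and vitamin D 2 fell, Slc34a2 and the sodium-calcium exchanger Slc8a1, and 0 rose (median -0.08). Of 10 genes of bile acids and FXR, the nuclear bile acid receptor, only Slc51b passed (median 0.08). Of 12 genes of zinc, copper and metallothioneins 3 fell, Slc39a4, Slc30a1 and Slc30a10, and 1 rose, the metal importer Slc39a8 (0.68 ± 0.13, edgeR adjusted p = 0.0215). The shares called on these lists were 20%, 10% and 33.3%, against 4.11% of all genes tested. Slc39a8 lost its call without metformin 2 or metformin 3. The zinc importer Slc39a4 fell by 0.56 on the log2 scale (SE 0.08, edgeR adjusted p = 0.00958). Cyp2c55, Slc34a2, Slc51b and Hspa12a passed under all 11 planned settings. Ces2a missed the threshold without metformin 1 (edgeR adjusted p = 0.0595) or metformin 3 (0.0698), and Slc39a4 without metformin 3 (0.0545).

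The antigen-presenting genes of MHC class II were lower in metformin libraries. Of 8 such genes 4 fell (50%, against 4.11% of all genes called), 0 rose and all had a negative fold change, with a median of -1.04. H2-Aa, a chain of the class II molecule, had 161, 177 and 107 CPM in metformin libraries, against 225, 338 and 611 CPM in control libraries (-1.40 ± 0.33, edgeR adjusted p = 0.0395). H2-Eb1 had 122, 134 and 95.6 CPM in metformin libraries, against 172, 241 and 310 CPM in control libraries (-1.04 ± 0.22, edgeR adjusted p = 0.0282). The groups did not overlap in either gene, and the control libraries spread over a wider range than the metformin libraries. The calls were not stable: 0 of 8 passed with the replicate block and without control 2, control 3, metformin 1 or metformin 3. With the replicate block H2-Aa had an edgeR adjusted p of 0.0802 and H2-Eb1 one of 0.0526. The count was 6 without control 1 and 1 without metformin 2. Of 45 interferon-induced genes Zbp1 and Gbp2 fell and 0 rose, with a median of -0.43. The share called on that list, 4.44%, was near the 4.11% of all genes tested. No fall passed there without control 1, control 2 or any 1 of the metformin libraries, and 1 passed without control 3.

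Markers of immune cells were lower beside these genes. Of 16 macrophage and dendritic markers 6 fell (37.5%, median -0.61) and of 18 B and plasma cell markers 4 (22.2%, median -0.65). Of 18 T and NK cell markers 5 fell (27.8%, median -0.49), and 0 rose on any of the 3 lists. Of all genes tested 4.11% were called. Every marker tested on these 3 lists had a negative fold change. Summed macrophage and dendritic markers stood at 145 to 155 CPM in metformin libraries and 212 to 235 CPM in control libraries. Summed B and plasma cell markers stood at 4380 to 4740 CPM in metformin libraries and 6470 to 7480 CPM in control libraries, and summed T and NK cell markers at 209 to 278 CPM in metformin libraries and 322 to 380 CPM in control libraries. None of the 3 sums overlapped between groups, and their part in the fall of the MHC class II genes was not tested. Igha, the heavy chain of immunoglobulin A, had 2566, 2755 and 2762 CPM in metformin libraries, against 4485, 3736 and 4076 CPM in control libraries (-0.61 ± 0.12, edgeR adjusted p = 0.0221). It missed the threshold without control 1 (edgeR adjusted p = 0.0594) or metformin 1, 2 or 3 (0.0839, 0.0545 and 0.084). Without metformin 3, 0 markers passed on each of these 3 lists. Without metformin 1 the counts were 1 for macrophages and dendritic cells, 1 for B and plasma cells and 0 for T and NK cells.

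Of 181 immunoglobulin variable genes tested, 9 fell and 1 rose (median -0.63), where 4.11% of all genes tested were called. Ighv1-81 had 5.42, 5.58 and 3.89 CPM in metformin libraries, against 34.6, 36.7 and 23.8 CPM in control libraries (-2.67 ± 0.35, edgeR adjusted p = 0.00958). Igkv8-24 had 4.15, 3.84 and 1.11 CPM in metformin libraries, against 22.1, 24.4 and 11.2 CPM in control libraries (-2.66 ± 0.40, edgeR adjusted p = 0.00958). Both passed under all 11 planned settings. Reads of near-identical variable genes may be shared between them, so the gene to which they were counted is uncertain.

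Smooth muscle and fibroblast genes were lower in metformin libraries. Of 16 smooth muscle markers 13 fell (81.2%, against 4.11% of all genes called), 0 rose and all had a negative fold change (median -0.75). Their summed level was 1490, 1940 and 1600 CPM in metformin libraries, against 2700, 2260 and 2570 CPM in control libraries, without overlap. Myh11, the smooth muscle myosin heavy chain, had 193, 262 and 216 CPM in metformin libraries, against 468, 320 and 406 CPM in control libraries (-0.83 ± 0.14, edgeR adjusted p = 0.0136). Mrvi1, a substrate of cGMP-dependent kinase in smooth muscle, had 12.6, 16.2 and 14.7 CPM in metformin libraries, against 25.7, 24.6 and 24.7 CPM in control libraries (-0.79 ± 0.11, edgeR adjusted p = 0.00958). The groups did not overlap in either gene, and metformin 2 was the metformin library with the highest values. The number of smooth muscle markers called was 0 without metformin 3, 2 without metformin 1, 14 without metformin 2, 5 without control 1, 14 without control 2 and 6 without control 3.

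Of 18 fibroblast markers 7 fell (38.9%, against 4.11% of all genes called) and 0 rose (median -0.56). Postn, the matrix protein periostin, had 6.21, 7.54 and 6.06 CPM in metformin libraries, against 14.6, 13.5 and 13.1 CPM in control libraries (-1.05 ± 0.12, edgeR adjusted p = 0.00475). Its groups did not overlap, and Postn and Mrvi1 passed under all 11 planned settings. Myh11 missed the threshold without metformin 1 (edgeR adjusted p = 0.0595) or metformin 3 (0.0741). The fibroblast count was 1 without metformin 3, 2 without metformin 1, 3 without control 1 or control 3, 4 without metformin 2 and 8 without control 2. None of 16 endothelial or 17 neuron and glia markers passed (medians -0.12 and -0.22). How much of any rise or fall described above came with the lower share of muscle, fibroblast and immune transcripts was not tested.

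**Figure D3:**
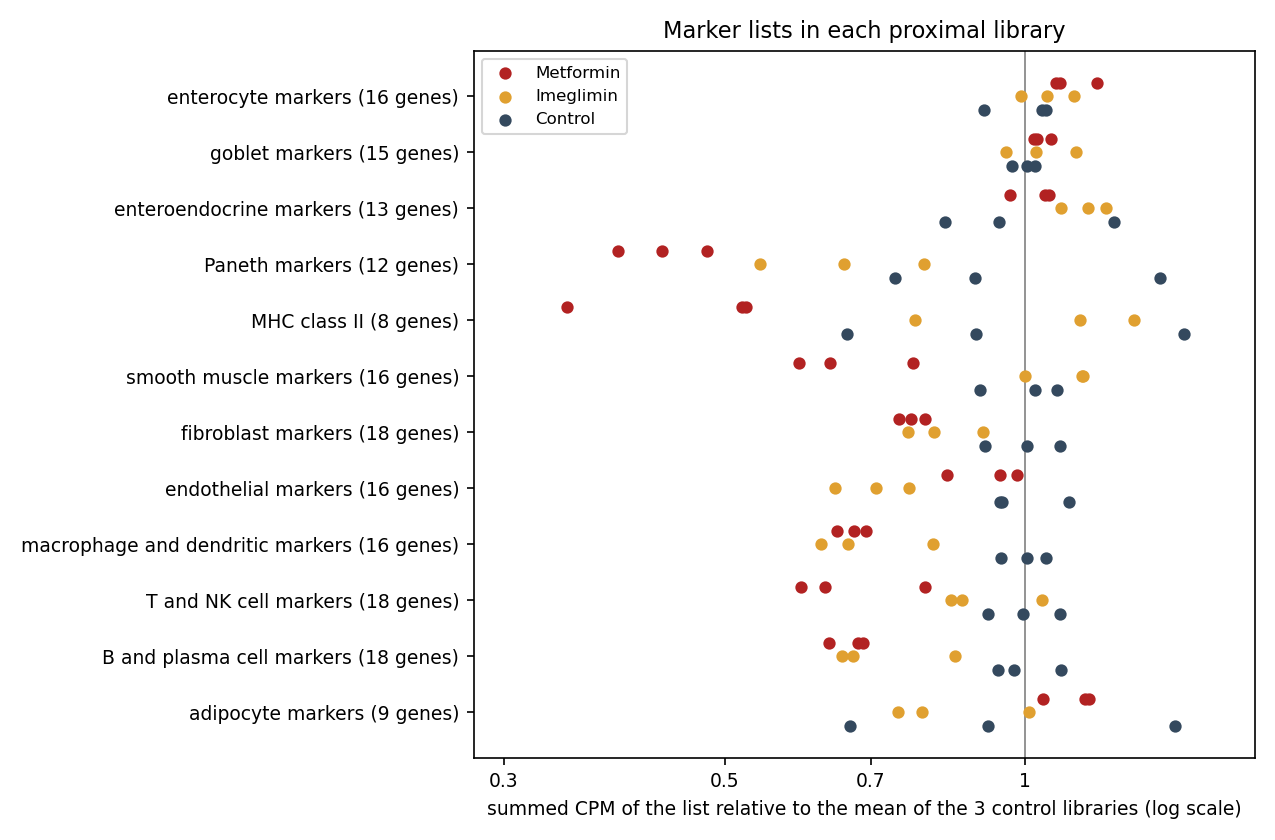
Summed CPM of 12 gene lists in each proximal library relative to the mean of the 3 control libraries (log scale), with metformin in red, imeglimin in yellow and control in dark blue from top to bottom in each row. The metformin points of Paneth, MHC class II, smooth muscle, fibroblast and the 3 immune cell lists lie below all control points, while those of enteroendocrine markers fall within the control range.

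Some growth factors of the EGF family fell in the proximal segment. Of 7 tested ligands of the EGF receptor family 3 fell (42.9%, against 4.11% of all genes called), 0 rose and 4 did not pass (median -0.28). Amphiregulin (Areg) had 3.8, 3.13 and 3 CPM in metformin libraries, against 8.23, 8.75 and 6.63 CPM in control libraries (-1.25 ± 0.22, edgeR adjusted p = 0.0164). Epiregulin (Ereg) had 3.22, 2.62 and 3.32 CPM in metformin libraries, against 7.71, 5.88 and 5.99 CPM in control libraries (-1.10 ± 0.18, edgeR adjusted p = 0.0113). Both genes had metformin libraries wholly below control libraries at a low level. Areg and Ereg missed the threshold without metformin 3 (edgeR adjusted p = 0.078 and 0.0533). The count of EGF ligands called was then 0, and it was 2 without control 1, control 2, metformin 1 or metformin 2.

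Genes of the integrated stress response were not raised. Of 31 tested 0 rose and 1 fell, the transcription factor Atf3 (-0.84 ± 0.13, edgeR adjusted p = 0.0113; 0.0639 without metformin 3), with a median of -0.23. The stress hormone Gdf15 averaged 0.731 ± 0.16 CPM in metformin libraries and 1.05 ± 0.431 CPM in control libraries (SD, n = 3 each), with a log2 difference of -0.53 ± 0.35 (edgeR adjusted p = 0.43).

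No gene of hexose transport passed in either direction (0 of 12, median -0.02). The sodium-glucose transporter Slc5a1 had 5349, 4902 and 4922 CPM in metformin libraries, against 3778, 4538 and 5105 CPM in control libraries. The groups overlapped, and the log2 difference was 0.18 ± 0.11 (edgeR adjusted p = 0.414). The fructose transporter Slc2a5 stood at -0.05 ± 0.15, the basal glucose transporter Slc2a1 at 0.01 ± 0.14, hexokinase Hk2 at -0.19 ± 0.11 and the basolateral transporter Slc2a2 at -0.23 ± 0.08 (edgeR adjusted p = 0.899, 0.983, 0.348 and 0.138). Of the hormone genes, proglucagon (Gcg) stood at -0.12 ± 0.12, Gip at -0.22 ± 0.17 and Cck at 0.15 ± 0.15 (edgeR adjusted p = 0.641, 0.504 and 0.626), and 0 of 14 tested gut hormone genes passed. The transporters Slc22a3, Slc29a4 and Slc19a3, which can carry metformin, did not pass (edgeR adjusted p = 0.971, 0.668 and 0.36). Neither did Tfrc, Mthfd2, Txnip, G6pc or Pck1 (edgeR adjusted p = 0.591, 0.098, 0.515, 0.0903 and 0.333). Mthfd2 and Pck1 each stayed uncalled in 11 of 12 alternative settings and were called in the other. A p over the threshold does not show that these levels were alike.

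The effect of metformin in the proximal segment was set against that in the other 3 sites of the 4-week experiment, in a single fit of 36 libraries with 20053 genes and a test of each difference. The tables were counted separately, and the sources used here do not say whether the segments came from the same mice. Against middle small intestine 1 gene (0.00499%) passed, lower in proximal. Against distal small intestine 123 (0.613%) passed, 19 higher (0.0947%) and 104 lower (0.519%) in proximal. Against colon 752 (3.75%) passed, 257 higher (1.28%) and 495 lower (2.47%) in proximal. The 3 totals were 0, 73 and 399 with the replicate block. Without any 1 replicate number they were 0 for middle, and without numbers 1, 2 and 3 they were 62, 14 and 9 for distal and 225, 45 and 85 for colon. At an unadjusted p under 0.05 there were 1047 genes for middle, 1964 for distal and 3301 for colon, so few calls against middle do not show equal effects.

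The rise of Npl graded along the gut in this fit, at 3.62 ± 0.25 (log2) in the proximal, 2.89 ± 0.24 in the middle and 2.25 ± 0.24 in the distal segment, and 0.13 ± 0.34 in colon. The proximal effect exceeded the distal one by 1.37 ± 0.33 (edgeR adjusted p = 0.0426) and the colonic one by 3.49 ± 0.42 (edgeR adjusted p = 1.3e-05). The call against distal was lost with relative log expression scaling (edgeR adjusted p = 0.0518) and without the libraries numbered 2 (0.182) or 3 (0.736), while the call against colon held under every setting tried for this fit (edgeR adjusted p up to 0.026). The difference from middle, 0.73 ± 0.32, did not pass (edgeR adjusted p = 0.892). Colon averaged 0.841 CPM of Npl in metformin and 0.759 CPM in control libraries. The lysosomal rises were not particular to the proximal segment. Of 56 lysosomal lumen genes 10, 14, 19 and 21 were called higher from proximal small intestine to colon, and 2 were called lower, both in distal. Ctsz differed in none of the 3 tests, with effects of 0.76 ± 0.10, 0.73 ± 0.10, 1.11 ± 0.10 and 1.00 ± 0.10 from proximal small intestine to colon (edgeR adjusted p of the differences = 1, 0.364 and 0.449).

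Several genes went in opposite directions along the gut. The effect on Areg was -1.22 ± 0.26 in proximal and 1.96 ± 0.26 in distal small intestine, a difference of -3.19 ± 0.37 (edgeR adjusted p = 1.59e-05). That on Ereg was -1.07 ± 0.19 in proximal and 0.90 ± 0.18 in distal small intestine, a difference of -1.97 ± 0.26 (edgeR adjusted p = 7.85e-05). That on Cyp2c55 was -1.76 ± 0.35 in proximal small intestine and 1.50 ± 0.34 in colon, a difference of -3.27 ± 0.49 (edgeR adjusted p = 0.000289). Slc46a1 also differed between proximal small intestine (0.88 ± 0.27) and colon (-1.21 ± 0.28), by 2.09 ± 0.39 (edgeR adjusted p = 0.00232). The Cyp2c55 difference missed the threshold without the libraries numbered 2 (edgeR adjusted p = 0.0655), and that of Slc46a1 without those numbered 1 (0.0993) or 3 (0.0686). In this fit, whose spread is shared over all segments, the proximal effect on Slc46a1 by itself had an edgeR adjusted p of 0.107.

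A second set of genes had a large effect elsewhere and none past the threshold in proximal small intestine. Mthfd2, a mitochondrial folate enzyme, stood at -0.49 ± 0.24 in proximal small intestine and 2.98 ± 0.26 in colon (difference edgeR adjusted p = 1.75e-06). The transferrin receptor Tfrc stood at 0.14 ± 0.21 in proximal small intestine and 2.76 ± 0.22 in colon (difference edgeR adjusted p = 9.14e-06). Gsta1, a glutathione transferase, stood at 0.23 ± 0.19 in proximal and 2.76 ± 0.21 in distal small intestine (difference edgeR adjusted p = 9.99e-06). In the integrated stress response list 5 of 31 effects were lower in proximal than in distal small intestine and 11 of 31 lower than in colon, and 0 were higher. For MHC class II, Paneth and smooth muscle markers 0 of 8, 12 and 16 effects differed between the proximal segment and any of the other 3. Their median effects from proximal small intestine to colon were -1.02, -0.20, -0.16 and -0.78 for MHC class II, -1.19, -0.47, -1.38 and -0.10 for Paneth markers, and -0.73, -0.04, -0.70 and -0.42 for smooth muscle markers. Called lower in this fit, in the same order of sites, were 2, 0, 0 and 2 MHC class II genes. For Paneth markers the counts were 0, 0, 8 and 2, and for smooth muscle markers 3, 0, 12 and 1. The lack of called differences does not show that the effects were equal. Paneth genes were also close to 0 in colon, where Defa24 averaged 0.0679 CPM in metformin and 0.0745 CPM in control libraries.

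**Figure D4:**
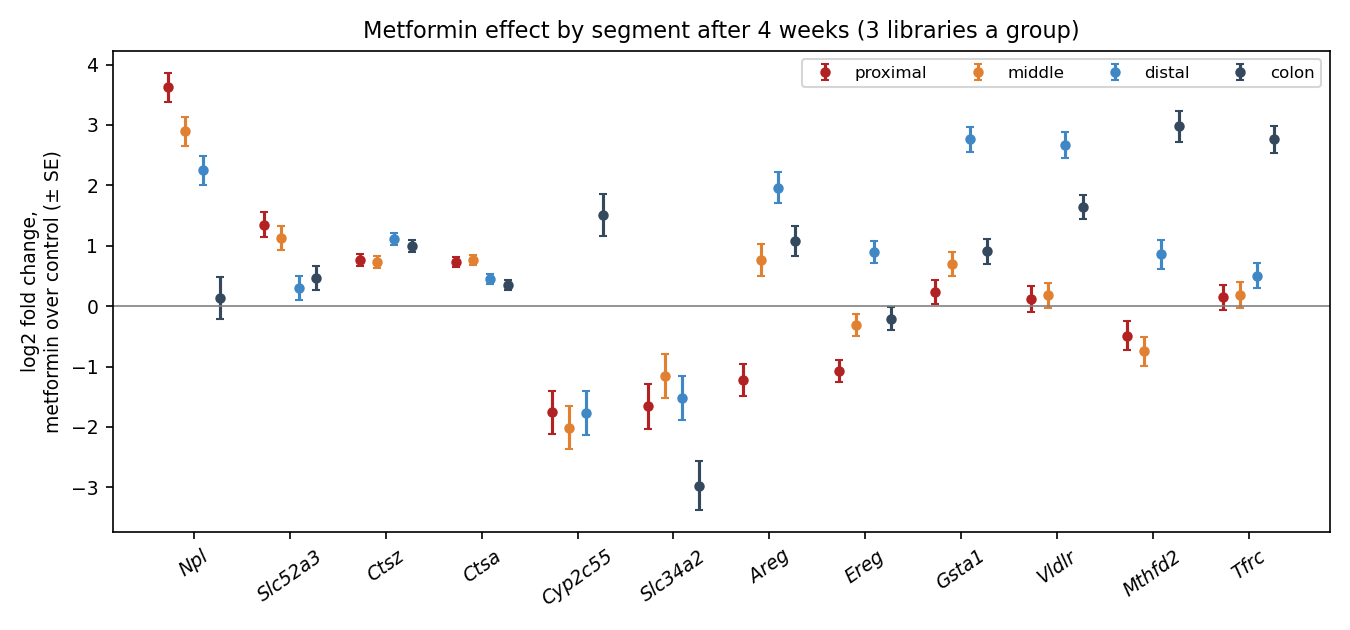
Log2 fold change of metformin over control with its standard error (vertical axis) for 12 genes in the 3 small intestinal segments and colon after 4 weeks, 3 libraries a group. Npl declines from 3.62 in proximal small intestine to 0.13 in colon, whereas Areg lies at -1.22 in proximal and 1.96 in distal small intestine and Mthfd2 and Tfrc rise in colon.

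Metformin and imeglimin, a pair of related compounds of which the second has a ring that metformin lacks, were given at 3 mg/mL for 4 weeks each, and this was the 1 pair compared. Between them 189 of 17295 genes (1.09%) passed, 75 higher with metformin (0.434%) and 114 lower (0.659%). That number was 94 with the replicate block and 392 with only the 2 groups in the fit. It was 0 without metformin 1 or metformin 3, 140 without metformin 2, and 43, 111 and 45 without imeglimin 1, 2 and 3. The metformin libraries are shared with the comparison against control.

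Of 56 lysosomal lumen genes 6 were higher with metformin than with imeglimin and 0 were lower (median 0.17). None of 25 lysosomal membrane genes passed in either direction (median 0.15), and of 25 genes of lipid absorption and chylomicrons only Apoc2 passed (median 0.05). Ctsa had 187, 186 and 208 CPM in metformin libraries, against 128, 146 and 144 CPM in imeglimin libraries (0.48 ± 0.08, edgeR adjusted p = 0.0223). Apoc2 had 788, 785 and 860 CPM in metformin libraries, against 533, 572 and 611 CPM in imeglimin libraries (0.50 ± 0.07, edgeR adjusted p = 0.0155). Dnase1 had 111, 124 and 93.4 CPM in metformin libraries, against 216, 206 and 214 CPM in imeglimin libraries (-0.95 ± 0.11, edgeR adjusted p = 0.00923). No groups overlapped in these 3 genes. Smooth muscle markers were lower with metformin than with imeglimin in 14 of 16 genes (median -0.97), and summed to 1490, 1940 and 1600 CPM in metformin libraries and 2870, 2510 and 2860 CPM in imeglimin libraries. Of 8 MHC class II genes only H2-Eb1 was lower with metformin (-1.08 ± 0.22, edgeR adjusted p = 0.041), yet the median was -1.08. Their sums were 775 to 1170 CPM in metformin and 1730 to 2870 CPM in imeglimin libraries, without overlap. Of 18 fibroblast markers 1 was lower with metformin, and 0 were on the 3 immune cell lists. Summed fibroblast markers stood at 654 to 693 CPM in metformin and 667 to 794 CPM in imeglimin libraries. Macrophage and dendritic markers stood at 145 to 155 and 140 to 181 CPM, and T and NK cell markers at 209 to 278 and 295 to 364 CPM. The muscle gene Pgm5 fell by 1.13 on the log2 scale (SE 0.12, edgeR adjusted p = 0.00923), and the part of the muscle transcripts in the other differences was not tested.

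For other genes no difference between the drugs passed the test. Npl had 228, 190 and 226 CPM in metformin libraries, against 91.2, 180 and 145 CPM in imeglimin libraries. The log2 difference was 0.63 (95% interval 0.14 to 1.12, edgeR adjusted p = 0.185), and no library of either drug overlapped the other group. Cyp2c55 had 16.1, 22.9 and 19.5 CPM in metformin libraries, against 18.2, 13.7 and 16.2 CPM in imeglimin libraries, a difference of 0.28 (95% interval -0.18 to 0.74, edgeR adjusted p = 0.535). Slc34a2 differed by 0.01 (95% interval -0.57 to 0.60, edgeR adjusted p = 0.987). Defa24 averaged 543 ± 102 CPM in metformin libraries and 854 ± 100 CPM in imeglimin libraries (SD, n = 3 each), a difference of -0.65 (95% interval -1.09 to -0.21, edgeR adjusted p = 0.134).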

How the data were processed

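Bulk RNA was extracted from intestine with RNeasy columns and made into TruSeq Stranded mRNA libraries, per the labels' protocols. The values deposited by the authors are whole-number counts for 45777 gene symbols, with 1 table a segment. Trimmomatic, FastQC, StringTie and HISAT2 are listed in the submitters' processing notes, with GRCm39 and mm10 as builds and no role for either. No source used here states the use of strand in counting, so overlapping and antisense genes are uncertain.

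Counts of the 9 proximal libraries were tested in R 4.3.3 with the edgeR 4.0.16 quasi-likelihood test, filterByExpr, TMM scaling and p-values adjusted by Benjamini-Hochberg over every gene tested (limit 0.05). CPM are TMM-scaled, and fold changes are given ± SE. The scripts were tested on simulated data. Effects in the 4 chronic tables were compared as interaction terms over 45751 shared symbols. Alternatives were RLE scaling, DESeq2 1.42.0, no filter, the replicate block, a fit of just the groups compared, and omitting each library in turn. An added one was the mean log2 CPM of 16 smooth muscle markers as a covariate.

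Named genes had an adjusted p under 0.05, at least 5 CPM in a group, no overlap and no predicted-model symbol. The 15 largest rises and falls, the 3 smallest p of each list, the 5 smallest p of each other comparison and a fixed set were taken, and the text gives a part of them, with 1 gene of the fixed set not reported here. Lysosomal and sialic acid lists, and other members named, were chosen after values were seen. The members and lists were chosen with earlier results of these data known. In the labels the batch tag of a library is its replicate number. By that tag the numbers pair the libraries, although 0 of 9 same-numbered pairs had deviations correlated over 0.1 (mean 0.00547). Promoter sequences are RefSeq's. Intervals cover the spread between libraries. Other samples were not analysed here.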

Additional observations from a re-analysis of the deposited data

Results flagged for a closer look

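The effect of metformin differed between segments by an interaction test (edgeR quasi-likelihood, Benjamini-Hochberg adjustment over 20053 genes) in the following genes, given as the proximal minus the other effect on the log2 scale. Tmem106b, a lysosomal membrane protein, differed from middle small intestine by -0.51 (edgeR adjusted p = 0.0319). It missed the threshold without any 1 replicate number. Against distal small intestine the differences were -3.19 for Areg, -1.97 for Ereg, -2.53 for Gsta1, -2.57 for the tubulin gene Tubb2a and -2.55 for the lipoprotein receptor Vldlr, with edgeR adjusted p of 9.99e-06 to 7.85e-05. Against colon they were -3.46 for Mthfd2, -2.62 for Tfrc, 0.96 for Add3, -2.16 for Dclre1a and -1.37 for the glycyl-tRNA synthetase Gars, with edgeR adjusted p of 4.52e-07 to 1.1e-05. No explanation was tested.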

How the results depend on the processing

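Directions of the 710 genes called did not turn under any planned setting, while counts moved. For metformin against control 1527 genes passed with DESeq2 (678 higher, 849 lower), 470 with the replicate block (258 lower), 52 to 493 with a library left out (23 to 190 higher, 29 to 303 lower) and 4 with the smooth muscle covariate (3 higher, 1 lower). For metformin against imeglimin it was 819 with DESeq2 (416 higher, 403 lower), 94 with the replicate block (35 and 59), 392 with only the 2 groups compared (183 and 209) and 0 to 140 with a library left out (0 to 46 higher, 0 to 100 lower). The test of proximal minus middle called 0 genes without the filter, with the replicate block or without any replicate number. For proximal minus distal the replicate block gave 73 (12 higher, 61 lower), no filter gave 12 higher, and leaving out a number gave 9 to 62 (0 to 9 higher, 9 to 53 lower). For proximal minus colon it was 399 (128 and 271), 159 higher without the filter and 45 to 225 (13 to 65 higher, 32 to 160 lower). Genes that were not called turned sign with a library left out: Gip (-0.366 to 0.06), Tfrc (-0.004 to 0.231), Slc2a5 (-0.21 to 0.078), Slc22a3 (-0.173 to 0.103) and Slc2a1 (-0.098 to 0.151). With the smooth muscle covariate Ighv1-63 (0.414), Hk2 (0.045), Slc19a3 (-0.064), Txnip (0.252) and Slc22a3 (0.024) did. The causes were not tested. Of 1265 values of called genes named, over 11 settings, 915 kept their call and 350 missed the threshold.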
